A study of Mus musculus with 3 samples.

Results

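The chaperone genes described here are 8 of the 39179 genes of the count table, taken by symbol: the HSP90 genes Hsp90aa1, Hsp90ab1 and Hsp90b1, the HSP70 genes Hspa5, Hspa8 and Hspa9, and the partner genes Bag3 and Pdia3. All 8 were found, and 7 had enough counts to be tested. The symbols stand for proteins of the cytosol and the endoplasmic reticulum (ER), apart from Hspa9, whose product is known as the HSP70 of mitochondria. The libraries come from white fat of C57BL/6 mice aged 16 weeks that carried a Flag-FTO transgene and had fasted overnight. The FTO protein takes methyl groups off adenosine bases of RNA. RNA was pulled down with the anti-Flag M2 antibody in 2 libraries (Flag-IP 1 and Flag-IP 2) and with IgG in 1 library (IgG-IP). IgG-IP measures RNA that comes down with an antibody not aimed at the tag. Every library comes from transgenic animals, and the labels name neither the promoter of the transgene nor the animals behind each library, so p-values measure only the spread between the Flag-IP libraries, which may be technical.

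Chaperones bind unfolded stretches of other proteins and help them fold. HSP70 proteins act early, with J-domain proteins that load them and exchange factors such as Bag3 that empty them, and HSP90 proteins act late, on kinases and steroid receptors such as the glucocorticoid receptor of fat cells. The ER has its own set, Hspa5 (BiP), Hsp90b1 (GRP94) and the disulfide enzyme Pdia3, whose genes are known for their induction by the unfolded protein response.

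The libraries held 98227791, 95824218 and 74176962 counts, but the median tested gene had only 24, 26 and 25 counts. Counts are given throughout in the order Flag-IP 1, Flag-IP 2, IgG-IP. The chaperone genes were counted at that low level, with 2 to 42 counts per library, so counting error alone is wide. All 10 white adipocyte markers had counts in every library, Adipoq with 18, 14 and 3 and Cidec with 117, 93 and 152. Their summed normalized counts were 378 and 284 in the Flag-IP libraries against 230 in IgG-IP, and those of 4 skeletal muscle markers were 106 and 58.5 against 36.8. The sums of the 4 endothelial markers were 309 and 357 against 321, and those of 4 macrophage markers 25.8 and 24.7 against 29.2, with Lyz2 and Cd14 at 0 in both Flag-IP libraries. Those of 4 B and T cell markers were 58.1 and 54.4 against 36.7, and those of 3 brown adipocyte markers 30.2 and 23.7 against 16.0. The part of these shifts in the chaperone values was not tested.

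Flag-IP was set against IgG-IP to ask which RNAs the tagged FTO brought down beyond the background. Of the HSP90 genes, Hsp90ab1, for the constitutive cytosolic HSP90, and Hsp90b1, for the HSP90 of the ER, were higher in Flag-IP. Hsp90aa1, for the stress-inducible cytosolic HSP90, did not pass the test. Among the 7 tested members, 2 were higher and 0 were lower by edgeR's quasi-likelihood test at an adjusted p under 0.05. At an unadjusted p under 0.05 the same counts of 2 and 0 were found, where 12.9% of all tested genes were higher and 11.8% lower. Of all 17587 tested genes 5.58% were higher and 5.77% lower (981 and 1015 genes; 342 and 3008 with scaling to total counts). Of the 8482 genes with a mean count between 8.67 and 31.7, the range of the tested members, 4.1% were higher and 1.38% lower. The tested members had a median log2 fold change of 0.68, against 0.03 for all tested genes. Normalized counts of both Flag-IP libraries lay above IgG-IP for 4 of the 8 members and below it for 2, while 40.4% of all tested genes had both above and 39% both below.

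**Figure D1:**
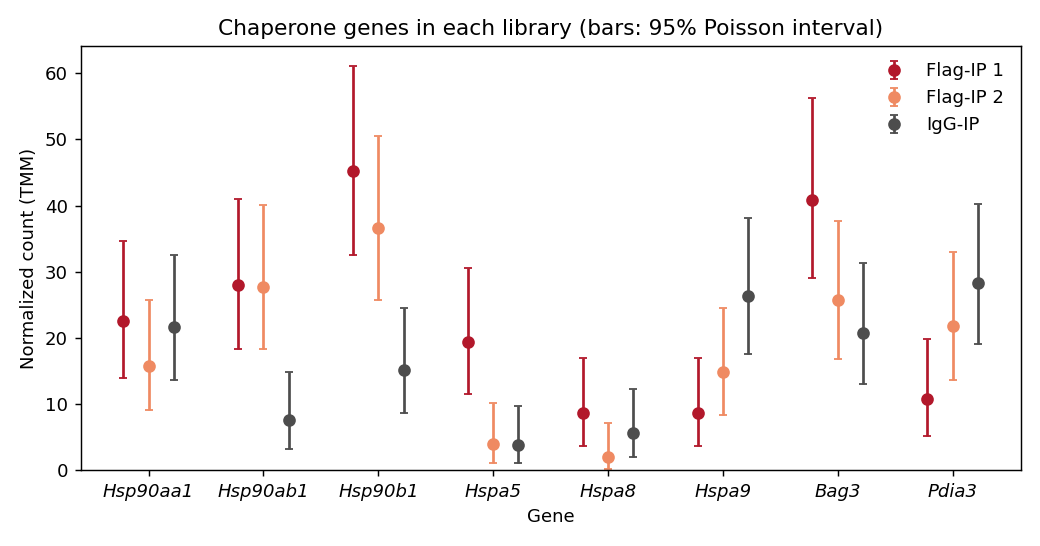
Normalized counts (y axis, scaled by TMM factors) of the 8 chaperone genes (x axis) in each of the 3 libraries, with exact 95% Poisson intervals of each count, which cover counting error only. Hsp90ab1 and Hsp90b1 have both Flag-IP points above the upper end of the IgG-IP interval, and Hspa5 and Bag3 have only that of Flag-IP 1 there.

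Hsp90ab1 (chromosome 17, 45567775 to 45573271, minus strand, GRCm38) had 26, 28 and 8 counts, which are 28.0, 27.7 and 7.54 normalized counts. The Flag-IP libraries were nearly equal and both were above IgG-IP. Its log2 fold change was 1.87 ± 0.66 (SE, 2 against 1 libraries), a 3.65-fold difference (edgeR adjusted p = 0.0433). The IgG-IP value rests on 8 counts, with an exact 95% Poisson interval of 3.45 to 15.8 counts.

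Hsp90b1 (chromosome 10, 86690209 to 86705509, minus strand) had 42, 37 and 16 counts, or 45.2, 36.6 and 15.1 normalized counts. Both Flag-IP libraries again lay above IgG-IP. The log2 fold change was 1.43 ± 0.50 (SE), a 2.70-fold difference (edgeR adjusted p = 0.0424). On the opposite strand, the pseudogene 1810014B01Rik shares 415 exonic bases with Hsp90b1 and had 24, 20 and 12 counts. On the same strand, the small RNA gene Gm25745 shares 133 and had 3, 4 and 0 counts. Gm15344, also on the same strand, shares 84 and had 5, 0 and 1. How reads were assigned to overlapping genes, and with which strand setting, is not given in the sources used here. Reads of these genes and of Hsp90b1 could therefore not be told apart.

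Hsp90aa1 (chromosome 12, 110690605 to 110702728, minus strand) had 21, 16 and 23 counts, or 22.6, 15.8 and 21.7 normalized counts. The IgG-IP value lay between the Flag-IP values. The log2 fold change was -0.18 ± 0.57 (SE; edgeR adjusted p = 0.887). The difference between Hsp90aa1 and its paralogue Hsp90ab1 was not tested. How reads that match several HSP90 or HSP70 genes and their pseudogenes were counted is not given in the sources used here, so values of these similar genes are uncertain.

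The calls of Hsp90ab1 and Hsp90b1 were close to the threshold. Both were lost with scaling to total counts (edgeR adjusted p = 0.163 and 0.246), without a filter on low counts (0.0726 and 0.0886), against a 1.5-fold change (0.159 and 0.194) and with a trend on gene span removed (0.214 and 0.285), and with a trend on GC content removed only that of Hsp90ab1 was (0.156, against 0.0132 for Hsp90b1).

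None of the tested HSP70 members passed. Hspa5 (chromosome 2, 34771970 to 34777547, plus strand) encodes BiP, the main HSP70 of the ER, and had 18, 4 and 4 counts, or 19.4, 3.96 and 3.77 normalized counts. Flag-IP 1 was high and Flag-IP 2 was level with IgG-IP. The log2 fold change of 1.58 ± 1.19 (SE) had an edgeR adjusted p = 0.434. The log2 ratios of single libraries to IgG-IP were 1.89 for Flag-IP 1 and 0.05 for Flag-IP 2. Of the genes with mean counts in the members' range, 1.91% lay as far apart between the Flag-IP libraries as Hspa5 or farther.

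Hspa9 (chromosome 18, 34937414 to 34954357, minus strand) had 8, 15 and 28 counts, or 8.62, 14.9 and 26.4 normalized counts. Both Flag-IP libraries lay below IgG-IP, with a log2 fold change of -1.15 ± 0.62 (SE) and an edgeR adjusted p = 0.234. With scaling to total counts, which moved the median log2 fold change of all tested genes to -0.48, the value for Hspa9 was -1.66 and passed (edgeR adjusted p = 0.0438). Hspa8 (chromosome 9, 40800984 to 40810087, plus strand), for the constitutive HSP70 of the cytosol, had 8, 2 and 6 counts and was too low to be tested. Its Poisson intervals, 3.45 to 15.8, 0.242 to 7.22 and 2.20 to 13.1 counts, overlap each other. The introns of Hspa8 hold small nucleolar RNA genes, of which Snord14c, Snord14d and Snord14e had 0, 0 and at most 1 count in any library.

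The partner genes differed in sign and neither passed. Bag3 (chromosome 7, 128523616 to 128546981, plus strand), an exchange factor for HSP70 that also steers damaged proteins to autophagy, had 38, 26 and 22 counts, or 40.9, 25.7 and 20.7 normalized counts. Both Flag-IP libraries were above IgG-IP, Flag-IP 2 by little, with a log2 fold change of 0.68 ± 0.50 (SE) and an edgeR adjusted p = 0.423. With a trend on GC content removed that log2 fold change was 0.07. Its transcript had a GC content of 56.1%, the highest of the members, against a median of 49.2% over 14920 tested protein-coding genes.

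Pdia3 (chromosome 2, 121413775 to 121438687, plus strand), which forms disulfide bonds in glycoproteins, had 10, 22 and 30 counts, or 10.8, 21.8 and 28.3 normalized counts. Both Flag-IP libraries were below IgG-IP, with a log2 fold change of -0.78 ± 0.56 (SE) and an edgeR adjusted p = 0.404. Exons of Pdia3 and of Catsper2 on the other strand share 18 bases, and Catsper2 had 16, 24 and 28 counts, close to those of Pdia3 in 2 of the 3 libraries.

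**Figure D2:**
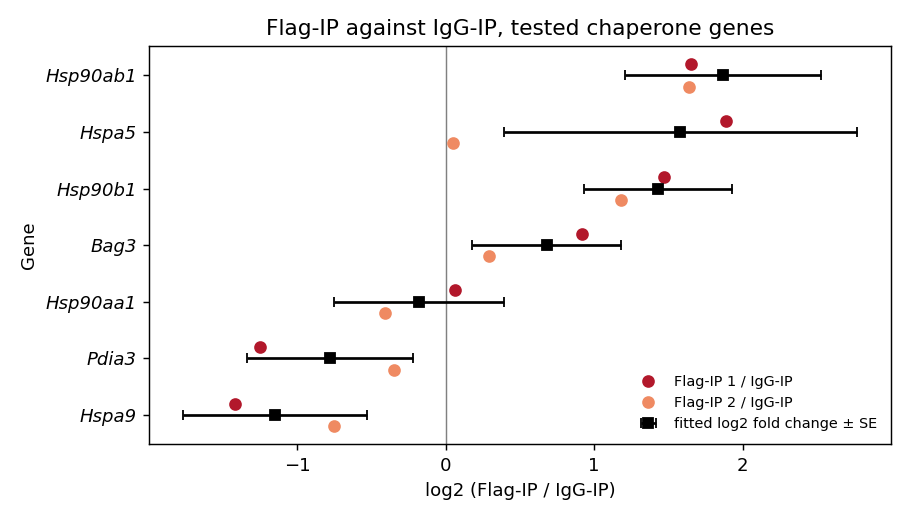
Log2 ratio of Flag-IP to IgG-IP (x axis) for the 7 tested chaperone genes (y axis): black squares with bars are edgeR's fitted log2 fold change ± SE, and coloured points are the log2 ratios of each Flag-IP library alone. Hsp90ab1 (1.65 and 1.64) and Hsp90b1 (1.47 and 1.18) have both library ratios well above 0, while those of Hspa5 lie at 1.89 and 0.05.

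Levels were compared between genes as normalized counts per kilobase of the longest coding transcript. The divisor leaves out gene span, which ran from 5497 bases for Hsp90ab1 to 24913 for Pdia3 among the members. In IgG-IP the members of longest span, Pdia3, Bag3 and Hspa9, had 30, 22 and 28 counts. Hsp90b1 and Hsp90aa1, of middle span, had 16 and 23. Those of shortest span, Hsp90ab1, Hspa5 and Hspa8, had 8, 4 and 6. The part of span and of intron reads in the values per kilobase was not tested, so these values need not rank the messenger RNAs. In Flag-IP the order was Hsp90b1 at 14.5 ± 2.15 (SD, n = 2), Bag3 at 13.0 ± 4.19 and Hsp90ab1 at 11.1 ± 0.0759, followed by Pdia3 at 5.88 ± 2.81, Hsp90aa1 at 5.86 ± 1.46, Hspa9 at 3.85 ± 1.45, Hspa5 at 3.18 ± 2.97 and Hspa8 at 2.21 ± 1.96. No member of the first group of 3 had a library below 10.0 per kilobase and no member of the other 5 had one above 7.87. Within each group the library values of every pair of neighbours overlapped. In IgG-IP the order was another one, Pdia3 at 10.2, Hspa9 at 8.65, Bag3 at 8.09, Hsp90aa1 at 6.60, Hsp90b1 at 5.34, Hsp90ab1 at 2.99, Hspa8 at 2.36 and Hspa5 at 1.03 per kilobase. The median tested protein-coding gene had 8.84 per kilobase in Flag-IP and 8.54 in IgG-IP. Hspa8 stood at percentile 4.6 of the protein-coding genes in Flag-IP and 10.8 in IgG-IP, and Hspa5 at 10.1 and 3.1. Hsp90ab1 stood at 59.9 and 15.3, and Hsp90b1 at 70.2 and 32.6.

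FTO acts on N6-methyladenosine, whose usual sequence context includes the letters GGACT, written here as DNA. Methylation itself was not measured in these libraries, and a match to these letters is a description of the transcript, not a site. Hsp90aa1 and Pdia3, which were not higher in Flag-IP, had 5 matches each, 1.52 and 1.80 per kilobase, while Hsp90ab1 and Hsp90b1 had 1 match each, 0.397 and 0.354 per kilobase and outside the coding sequence. Bag3 and Hspa9, also not higher, had 2 matches each, 0.781 and 0.656 per kilobase and all after the stop codon. Hspa5, not higher either, had 4 (1.09 per kilobase), and the untested Hspa8 had 1 (0.418). A relation between matches and Flag-IP values was not tested. Only the transcript strand was searched, and 92.6% of the 14920 tested protein-coding genes had at least 1 match and the median was 1.04 per kilobase. The coding match nearest to the stop codon of each is shown with GGACT in capitals, from exon 9 of 11 of Hsp90aa1 (chr12:110692703-110692727, minus strand) and exon 7 of 13 of Pdia3 (chr2:121432345-121432369, plus strand), both GENCODE M21 on GRCm38.
Hsp90aa1: taccaaagaaGGACTggaacttcca
Pdia3: actatgatgtGGACTatgaaaagaa

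The wider chaperone network was described with 11 lists, which hold the 8 members too and have 184 rows in the table, of which 149 were tested. Of these, 10 were higher and 6 lower by edgeR, or 6.71% and 4.03%, against 5.58% and 5.77% of all tested genes. With scaling to total counts 7 were higher and 17 lower. Without the members the counts were 8 and 6 of 142. The median log2 fold change of the network was -0.02, and 0.03 for all tested genes. As a whole the network was near the background.

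Co-chaperones of HSP90 had 3 of 18 genes higher and 0 lower, with 7 higher and 1 lower at an unadjusted p under 0.05, 7 and 0 by edgeR's likelihood ratio test, and a median log2 fold change of 0.67. Of all tested genes 5.58% were higher and 5.77% lower at an adjusted p under 0.05. The shares were 12.9% and 11.8% at an unadjusted p under 0.05, and 6.43% and 4.27% by the likelihood ratio test. Cdc37, which brings kinases to HSP90, had 22, 29 and 4 counts, with both Flag-IP libraries far above IgG-IP (2.76 ± 0.78, SE, on the log2 scale; edgeR adjusted p = 0.00825). Fkbp4, which joins HSP90 to steroid receptors, had 15, 14 and 0 counts and was at least 5.31-fold higher, with 3 counts as the floor for IgG-IP. Fkbp5, which slows the same receptors, had 3171, 3346 and 1503 counts (1.25 ± 0.24, SE; edgeR adjusted p = 1.97e-05). With a trend on GC content removed Fkbp4 did not pass (edgeR adjusted p = 0.0656), and with one on span removed Cdc37 did not (0.0502). Ahsa1, which speeds the ATP cycle of HSP90, had 12, 9 and 8 counts, and Stip1, which links it to HSP70, had 19, 14 and 12, and neither passed. Among the 7 genes higher at an unadjusted p under 0.05, Aarsd1 shares 1250 exonic bases with Gm27029 on the same strand (16, 23 and 4 counts). On the opposite strand Stub1 shares 1084 with Jmjd8 (10, 10 and 0) and Fkbp8 shares 224 with Kxd1 (15, 23 and 6). Reads of these overlapping genes could not be told apart.

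Of the HSP90 list 2 of 4 tested genes were higher, both members, and the mitochondrial Trap1 with 44, 49 and 59 counts did not pass. Over all tested genes 5.58% were higher and 5.77% lower by edgeR. The shares were 12.9% and 11.8% at an unadjusted p under 0.05, with 6.43% and 4.27% by the likelihood ratio test. Of 12 tested HSP70 and HSP110 genes 0 passed by edgeR in either direction, with 0 higher and 1 lower at an unadjusted p under 0.05 and 0 by the likelihood ratio test. The best counted were Hspa12a (55, 63 and 46) and Hspa4 (58, 29 and 63). Exchange factors also had 0 of 9, with 0 at an unadjusted p under 0.05 and 0 by the likelihood ratio test, Sil1 of the ER with 230, 191 and 210 counts and Hspbp1 with 35, 39 and 31. Small heat shock proteins had 2 tested genes of 10, Hspb8 (12, 38 and 11) and Hspb11 (8, 21 and 16), and 0 passed by edgeR, with 1 higher at an unadjusted p under 0.05 and 0 by the likelihood ratio test.

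J-domain co-chaperones had 1 of 35 genes higher and 2 lower by edgeR, with 3 and 4 at an unadjusted p under 0.05 and 1 and 2 by the likelihood ratio test. Beside these, 5.58% of all tested genes were higher and 5.77% lower by edgeR. The other shares were 12.9% and 11.8% unadjusted, with 6.43% and 4.27% by the likelihood ratio test. Dnajc22 had 50, 42 and 536 counts, far below IgG-IP in both Flag-IP libraries (-3.40 ± 0.24, SE, on the log2 scale; edgeR adjusted p = 1.58e-42). Dnajc1, an ER membrane J-protein, had 126, 123 and 250 counts, and overlaps Mllt10 on the other strand by 749 exonic bases, which had 620, 640 and 728. The call of Dnajc1 was lost in the likelihood ratio test (edgeR adjusted p = 0.0854), against a 1.5-fold change (0.31) and with DESeq2 (DESeq2 adjusted p = 0.214). Dnajc11, of the mitochondrial membrane, had 43, 39 and 15 counts (1.58 ± 0.51, SE; edgeR adjusted p = 0.0231). The call of Dnajc11 was lost with total-count scaling (edgeR adjusted p = 0.168), without a filter (0.0504), against a 1.5-fold change (0.132) and with GC content removed (0.246).

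Chaperonin and prefoldin genes had 2 of 14 higher and 0 lower by edgeR, with the same counts at an unadjusted p under 0.05 and by the likelihood ratio test. At an unadjusted p under 0.05, 12.9% of all tested genes were higher and 11.8% lower. Their shares by edgeR were 5.58% and 5.77%, and by the likelihood ratio test 6.43% and 4.27%. Pfdn2, a prefoldin subunit that hands new actin and tubulin to the chaperonin, had 102, 91 and 30 counts (1.82 ± 0.36, SE; edgeR adjusted p = 3.73e-05). Cct6a, a chaperonin subunit, had 97, 91 and 8 counts, but the small nucleolar RNA gene Snora15 inside it had 92, 75 and 0. Taking these off leaves 5, 16 and 8 counts, so the increase cannot be assigned to the messenger RNA of Cct6a. The heat shock factor list, which holds the partner gene Hsf2bp too, had 1 of 4 tested genes higher and 0 lower by edgeR. At an unadjusted p under 0.05 the counts were 1 and 1. The higher gene was Hsf4, with 46, 35 and 9 counts (2.29 ± 0.57, SE, edgeR adjusted p = 0.00169). This call was lost with a GC trend removed (edgeR adjusted p = 0.157, at a transcript GC of 61.5%). Hsf1 (22, 19 and 27 counts), Hsf2 (12, 10 and 31) and Hsf2bp (79, 99 and 90) did not pass.

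**Figure D3:**
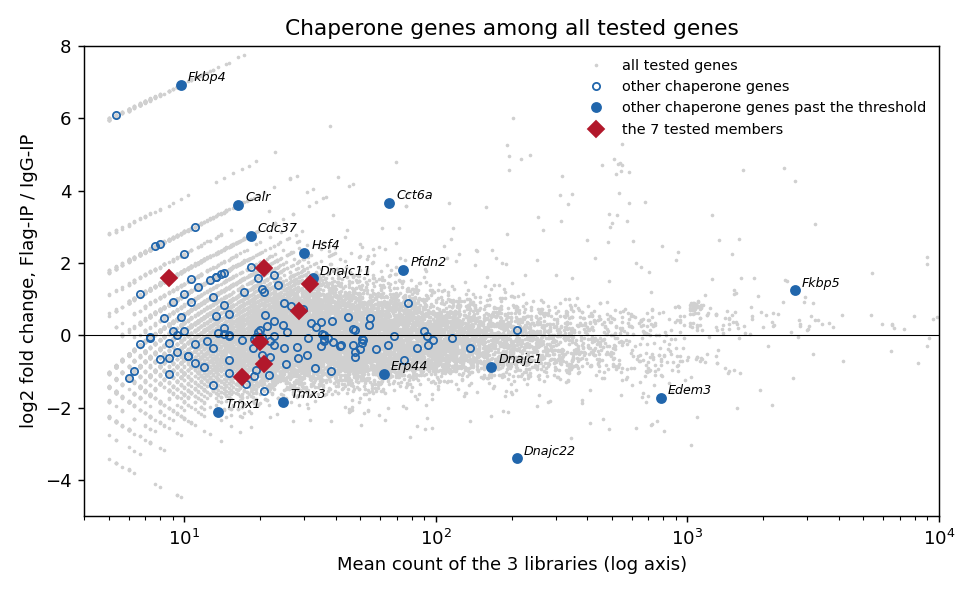
Log2 fold change of Flag-IP over IgG-IP (y axis) against the mean count of the 3 libraries (x axis, log scale) for all tested genes in grey, the other chaperone genes in blue (filled where past the threshold, with names) and the 7 tested members as red diamonds; 75 tested genes lie outside the axes. The members sit among the weakly counted genes, at mean counts of 8.67 to 31.7, where counting error is wide.

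In the ER the disulfide enzymes had 0 of 19 genes higher and 3 lower by edgeR, against 5.58% and 5.77% of all tested genes. At an unadjusted p under 0.05, 3 were higher and 4 lower (12.9% and 11.8% of all tested genes). The likelihood ratio test gave 1 and 2 (6.43% and 4.27%). The lower genes were the membrane thioredoxins Tmx1 (7, 5 and 29 counts) and Tmx3 (10, 15 and 49) and Erp44 (38, 49 and 99), which retrieves escaped ER proteins from the Golgi. Their transcripts had GC contents of 40.9%, 35.3% and 41.6%, and with a trend on GC removed none of the 3 passed (edgeR adjusted p = 0.278, 0.325 and 0.467). Of 19 tested genes of the unfolded protein response and ER degradation, 0 were higher and 1 was lower by edgeR, with 1 and 1 at an unadjusted p under 0.05 and by the likelihood ratio test. The lower gene was Edem3, which trims sugars of misfolded glycoproteins (588, 234 and 1524 counts; -1.73 ± 0.21, SE; edgeR adjusted p = 5.8e-14), with log2 ratios of -1.18 for Flag-IP 1 and -2.62 for Flag-IP 2. DESeq2 did not call the gene (-1.74 on the log2 scale; DESeq2 adjusted p = 0.382). Atf6, a sensor of ER stress, had 107, 134 and 168 counts and did not pass. Of 13 tested lectins and folding factors of the ER, 1 was higher, Calr, and 0 were lower by edgeR, at an unadjusted p under 0.05 and by the likelihood ratio test. Uggt1 (104, 78 and 110 counts) and Uggt2 (55, 94 and 103), which mark unfinished glycoproteins for another round of folding, did not pass.

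Many ER chaperone genes carry a promoter sequence, the ER stress element, which the transcription factors ATF6 and XBP1 are known to use. Its letters, CCAAT and CCACG with any 9 bases between them, were searched on both strands of RefSeq promoter windows (250 bases before to 50 after the start, GRCm38.p6), where 39 of 32851 windows (0.119%) hold it. Windows were matched for 150 of 183 network genes and for 4 of the 8 members, and Hsp90aa1, Hsp90ab1, Hspa8 and Hspa9 were not matched. The element was found for 10 network genes, Hsp90b1 and Hspa5 among the members, and not in the windows of Bag3 and Pdia3. A heat shock element, the site of HSF1, was taken as GAA, TTC and GAA or as TTC, GAA and TTC with 2 bases between neighbours, on both strands. It was found in 0.603% of all windows, for 5 network genes and for 0 of the 4 members with a window. The copies of Hsp90b1 and Hspa5 are shown as those of the members, with the element in capitals, 5' to 3' on the strand of the gene. It reads as written above in Hsp90b1 212 bases before the start (chr10:86705628-86705666, minus strand) and in Hspa5 65 before (chr2:34772015-34772053, plus strand). It is the reverse complement in Hsp90b1 107 bases before the start (chr10:86705523-86705561, minus strand). The Hspa5 copy lies inside the gene as GENCODE places it, from base 34771970, and before the start as RefSeq places it.
Hsp90b1 distal copy: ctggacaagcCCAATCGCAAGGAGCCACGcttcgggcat
Hsp90b1 proximal copy: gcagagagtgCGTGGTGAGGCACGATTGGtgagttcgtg
Hspa5: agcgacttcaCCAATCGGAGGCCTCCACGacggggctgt

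Of these 10 genes 9 were tested, and 2 were higher and 0 lower by edgeR, against 5.58% and 5.77% of all tested genes. Calr, for the lectin chaperone calreticulin, had 29, 18 and 2 counts, a Flag-IP to IgG-IP ratio of 12.9 (95% exact interval 3.37 to 109, counting error only; edgeR adjusted p = 0.00285), and Hsp90b1 is described above. Pdia6, a partner of Hspa5 in disulfide exchange, had 26, 22 and 7 counts, both Flag-IP libraries above IgG-IP, and did not pass (1.89 ± 0.71, SE, on the log2 scale; edgeR adjusted p = 0.0598). Creld2 (24, 8 and 6 counts) and the ubiquitin ligase gene Syvn1 (15, 7 and 2) had positive log2 fold changes of 1.54 and 2.53 that did not pass. Canx (67, 45 and 50) and Ero1lb (94, 84 and 99) stood at 0.30 and -0.02, Dnajc3 (28, 50 and 65) at -0.61, and Derl3 (0, 7 and 2) was not tested. In all 7 of 9 log2 fold changes were above 0, against 51.3% of all tested genes, with a median of 1.54, which was 0.38 without Flag-IP 1. The set was put together after the values were known and has no test.

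**Figure D4:**
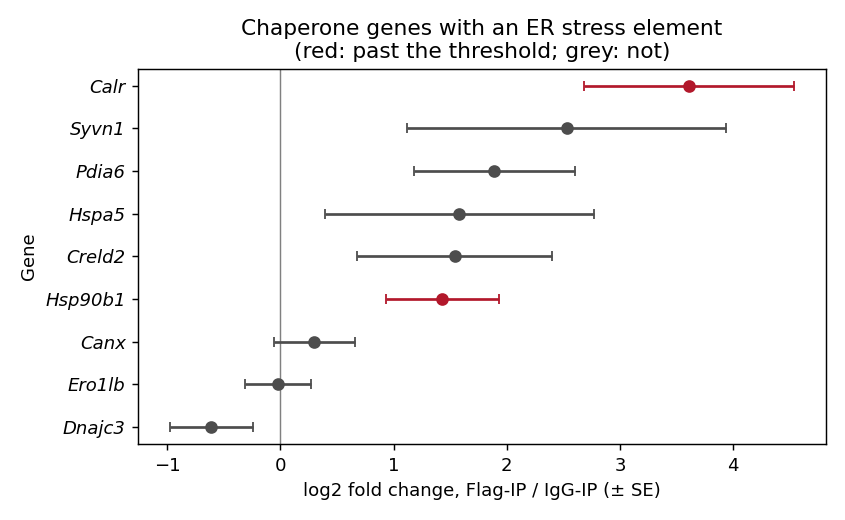
Log2 fold change of Flag-IP over IgG-IP ± SE (x axis) for the 9 tested chaperone genes whose promoter window holds an ER stress element (y axis), in red where past the edgeR threshold and in grey where not. Calr at 3.61 and Hsp90b1 at 1.43 are red, and 6 of the 9 genes lie above 1.

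**Figure D5:**
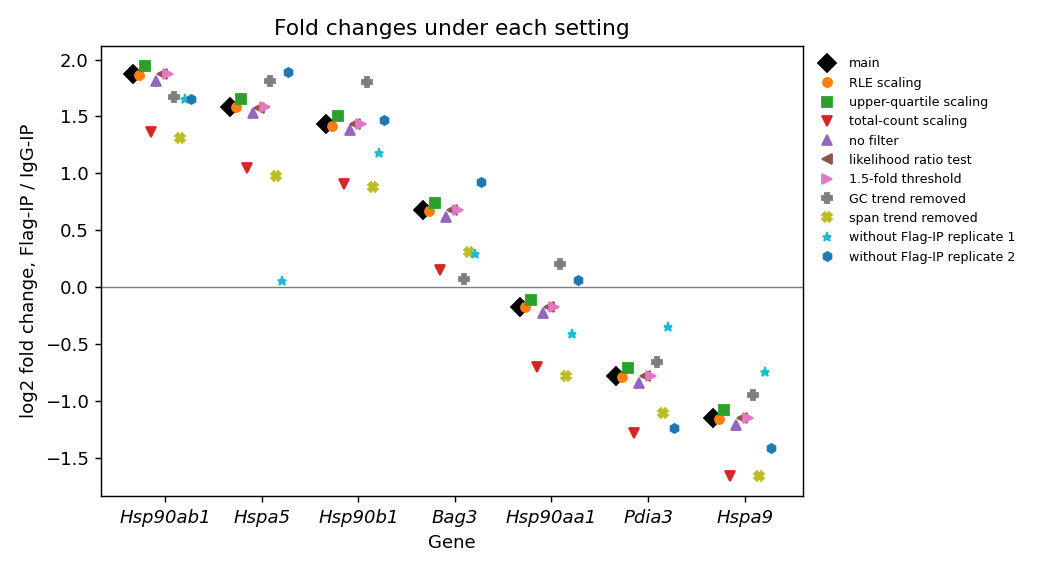
Log2 fold change of Flag-IP over IgG-IP (y axis) for the 7 tested members (x axis) under the main setting (black diamonds) and each alternative except DESeq2, which gave no adjusted p for them, and the filter of a mean of at least 50 counts, which left none of them. The points of Hsp90ab1 span 1.31 to 1.94 and those of Hsp90b1 0.88 to 1.80, while Hsp90aa1 falls on both sides of 0.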

How the data were processed

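RNA pulled down from white fat of Flag-FTO mice was sequenced in 3 libraries. The table deposited by the authors holds raw counts per Ensembl gene, not normalized. Bowtie 0.12.2, CASAVA 1.7 and the build mm8 are listed in the submitters' processing notes. How reads were assigned to genes, with which annotation and strand setting, is not given in the sources used here. Positions, transcripts and GC content come from GENCODE M21 (GRCm38), matched by Ensembl identifier (37607 of 39179), and promoter windows from RefSeq (GRCm38.p6). No mm8 coordinates are used.

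Genes were kept by filterByExpr (minimum count 10; 17587 genes) and scaled by TMM factors (0.84 and 0.936 for Flag-IP, 1.27 for IgG-IP). The main test was the quasi-likelihood test of edgeR 4.0.16 (R 4.3.3), Benjamini-Hochberg adjusted over all tested genes, threshold 0.05, tested on simulated data. Its 1 residual degree of freedom comes from the Flag-IP pair. The common dispersion over all genes was 0.0359, and the likelihood ratio test uses a common dispersion alone. The quasi-likelihood test fits further dispersions that borrow between genes, so its standard errors do not follow from 0.0359. A gene's own difference between these libraries carries little or no weight in its p-value, as for Edem3 (log2 ratios -1.18 and -2.62, SE 0.21). The IgG-IP library is assumed to vary alike. The standard error is the log2 fold change divided by the square root of F. Ratios of single libraries use a prior count of 2 and so lie nearer to 0. Trends on GC and span were lowess fits over protein-coding genes, removed as offsets. DESeq2 1.42.0 was an alternative.

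The members and the 11 lists were chosen with earlier results of these data known. Named genes are the members, called list genes whose mean count is 20 or more, and the best counted genes up to 2 per list. Others, among them Calr, Cdc37, Fkbp4, Tmx1, Trap1, Ahsa1, Stip1 and the genes with an ER stress element, were chosen after their values were seen, as were the motifs. Hspa14 has 2 rows, both counted. A deposited lipid list was not used. Intervals and floors cover counting error only.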

Additional observations from a re-analysis of the deposited data

How the results depend on the processing

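No paired analysis was possible because the labels do not name the animals behind each library, and the groups share only 1 replicate number. The members had 2 to 42 counts per library, which limits the precision of each value. The 2 higher members were 2 with RLE and upper-quartile scaling and in the likelihood ratio test, 1 with GC removed and 0 with total-count scaling, no filter, the 1.5-fold threshold and span removed; total-count scaling called 1 member lower. DESeq2 gave 0 of the 7 members an adjusted p (unadjusted p = 0.0839 for Hsp90ab1 and 0.101 for Hsp90b1), and with a mean of at least 50 counts no member was left. The cause of these changes was not tested.

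Counts over all genes, 981 higher and 1015 lower, were 342 and 3008 with total-count scaling and 331 and 172 against 1.5-fold. With GC removed they were 384 and 362. DESeq2 called 127 and 124, but gave an adjusted p to only 2926 of the 17587 genes. Network counts, 10 and 6, had 17 lower with total-count scaling and 4 higher at a mean of at least 50 counts (26 network genes left). There were 16 higher in the likelihood ratio test, 2 lower against 1.5-fold, and 6 and 3 with GC removed. DESeq2 called 1 and 1, but gave an adjusted p to only 11 of the 149 network genes. The network median of -0.02 was 0.05 with upper-quartile scaling, -0.54 with total-count scaling, 0.04 without a filter, -0.23 with span removed, and -0.03 to 0.04 with either Flag-IP library left out.

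Signs that changed were all of genes that did not pass. Hsp90aa1 was 0.20 with GC removed and 0.06 without Flag-IP 2. With total-count scaling Canx was -0.23, Hsf2bp -0.40, Hspa12a -0.03, Hspbp1 -0.13 and Sil1 -0.38. With GC removed Hspb11 was 0.43, Hspbp1 -0.41, Sil1 -0.42, Sugt1 0.23, Uggt2 0.17 and Ero1lb 0.33. With upper-quartile scaling Hspb11 and Ero1lb were 0.05 each, and at a mean of at least 50 counts Ero1lb was 0.07. Leaving out Flag-IP 1 or Flag-IP 2 gave -0.08 and 0.60 for Canx, 0.42 and -0.68 for Hspb11, -0.06 and 0.32 for Sil1, -1.0 and 0.07 for Hspa4, -0.16 and 0.12 for Ero1lb, and 0.11 without Flag-IP 2 for Uggt1.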
